A study of Homo sapiens with 20 samples.

Results

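Full-length TFE3 was set against the empty vector (EV) in the accessible chromatin of SW872 cells, an established human liposarcoma line, through 1 list of peaks for each vector. A gained peak was a TFE3 peak with a summit −log10 p of 6 or more, the strength the peak caller gave its highest point, and with no EV peak within 1 kb. A lost peak was an EV peak chosen by the same rule in the other direction, and a shared peak overlapped a peak of the other list by 1 bp or more. Of the 156421 TFE3 peaks, 47513 reached that summit and 130 were gained, 0.274% of those tested. Of the 171102 EV peaks, 46845 reached it and 203 were lost, or 0.433%. Shared peaks numbered 113192 on the TFE3 side and 118446 on the EV side. These lists are part of a series whose 7 lists hold 1407450 peaks, and the other 5 serve here as a reference.

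SW872 cells were stably transduced with EV, TFE3, TAZ4SA, YAP5SA, CAMTA1 or the fusions TAZ-CAMTA1 and YAP-TFE3, and 20 libraries were made by ATAC-seq. TFE3 had 2 libraries, which are titled replicates 2 and 3, whereas EV and every other vector had 3. For EV, replicate 3 is titled a redo, and the titles of the YAP-TFE3 libraries name its YAP part as Yap5SA. TFE3 was an introduced construct, in cells not described as lacking their own TFE3, and all vectors, EV included, were carried by the same parental line. The lists hold 1 value per peak and vector with no value for a single library, so no replicate error exists and no test was run. The intervals given are Wilson 95% intervals and cover counting error only.

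TFE3 is a transcription factor of the MiT family, which binds DNA as a dimer through a basic helix-loop-helix leucine zipper domain. The family recognizes E-box sequences and is known for switching on genes of lysosomes and autophagy when the proteins enter the nucleus, and TFE3 is a recurrent partner in gene fusions of sarcomas and kidney cancers. In ATAC-seq a transposase inserts adapters where DNA is not wrapped tightly, so a peak marks a stretch of open chromatin such as a promoter or an enhancer. In a bulk profile, fewer cells with a site open and a site less open in each cell cannot be told apart.

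The TFE3 list stood apart in its strongest peaks before any comparison with EV. Its highest summit −log10 p was 41.0, whereas EV reached 64.0 and the other lists between 59.3 and 72.8. It held 473 peaks with a summit of 15 or more, whereas EV held 2257 and the other lists from 1802 in TAZ4SA to 12389 in YAP-TFE3. Its typical peak was not weak. The median area under the curve, the size the caller assigns to a peak, was 143 in TFE3 and 103 in EV, the median width was 217 bp and 180 bp, and the median summit was 4.78 and 4.67. How many reads lie behind a list is unknown, TFE3 had fewer libraries than EV, and their part in the results below was not tested.

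Nearly all strong peaks of either list overlapped a peak of any strength in the other. With a summit of 6 or more asked of both sides, 40018 of the 47513 TFE3 peaks (84.2%) overlapped an EV peak. With EV peaks of any strength, 47316 (99.6%, interval 99.5 to 99.6%) of these TFE3 peaks overlapped an EV peak, 67 (0.141%) lay within 1 kb of one without overlap, and 130 lay farther away. On the EV side 46519 (99.3%) overlapped a TFE3 peak, 123 (0.263%) lay within 1 kb, and 203 lay farther away. Missing overlap was more frequent once weak peaks were included. Of all TFE3 peaks 72.4% overlapped an EV peak and 20044 (12.8%) lay beyond 1 kb of any, while 69.2% of all EV peaks overlapped a TFE3 peak and 27076 (15.8%) lay beyond 1 kb.

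The other vectors gave larger gained sets under the same rule, and all of them were set against the same EV list. YAP5SA gained 7282 peaks (10.5% of its peaks with such a summit), YAP-TFE3 6128 (7.62%), CAMTA1 3622 (4.92%), TAZ-CAMTA1 3099 (4.14%) and TAZ4SA 1870 (4.2%). The TFE3 share of 0.274% was thus the lowest of the 6. The lost set of TFE3 did not stand at an end of the range. TAZ4SA lacked 2123 EV peaks (4.53%) and YAP5SA 309 (0.66%), whereas CAMTA1 lacked 28 (0.0598%), TAZ-CAMTA1 49 (0.105%) and YAP-TFE3 77 (0.164%). At this threshold lost exceeded gained for TFE3 and TAZ4SA, and gained exceeded lost for the other 4 vectors. The order for TFE3 rested on the threshold, since at a summit of 5 or more there were 1669 gained and 1611 lost peaks. TFE3 and TAZ4SA also had the shortest lists, with 156421 and 152702 peaks.

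A fixed summit lets more peaks through from a list with higher summits, so the strongest 44497 peaks of every list were also taken by rank and set against the other list reduced to its strongest 152702, an alternative chosen after seeing the data. TFE3 then gained 109 peaks (0.245%) and lost 179 (0.402%). TAZ-CAMTA1 gained 156 (0.351%), CAMTA1 416 (0.935%), YAP-TFE3 608 (1.37%), TAZ4SA 2116 (4.76%) and YAP5SA 2990 (6.72%). TAZ4SA lost 1799 by rank, fewer than it gained, so the order of its counts turned. TFE3 remained lowest among the 6 vectors for gained peaks, but the distance to TAZ-CAMTA1 shrank from 4.14% against 0.274% to 0.351% against 0.245%. By rank the lost share of TFE3 was close to that of YAP-TFE3, 188 peaks or 0.423%.

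The share of TFE3 peaks beyond 1 kb of EV fell to 0 at lower summits than in the other lists. Among peaks with a summit from 6 to 7, 0.926% of the TFE3 peaks lay beyond 1 kb of EV, and 9.10% did in TAZ4SA, 13.7% in TAZ-CAMTA1, 14.3% in CAMTA1, 19.2% in YAP5SA and 20.6% in YAP-TFE3. From 7 to 8 the TFE3 count was 2 of 9351 (0.0214%). No TFE3 peak with a summit of 8 or more lay beyond 1 kb of EV, out of 12381 peaks from 8 to 10, 11480 from 10 to 15 and 473 above. The other lists still held such peaks between 8 and 10, from 0.778% in TAZ-CAMTA1 to 9.93% in YAP5SA.

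**Figure D1:**
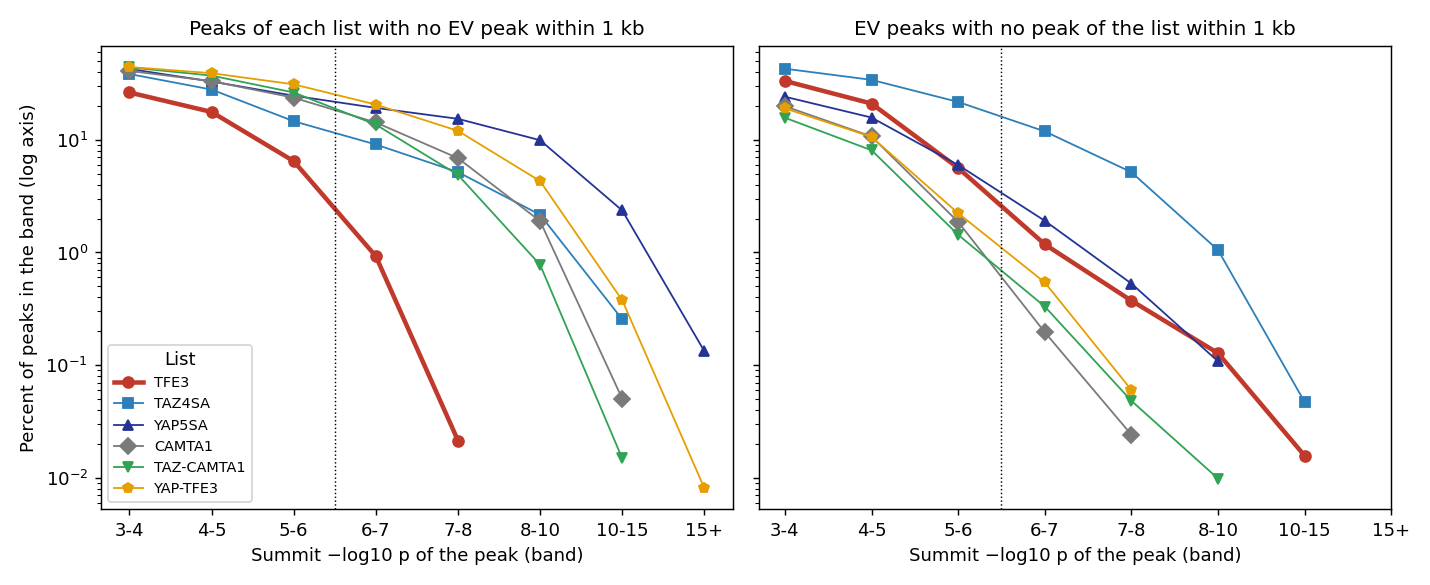
Share of peaks, on a log axis in percent, with no peak of the other list within 1 kb, by band of summit −log10 p, for each list against EV (left) and for EV against each list (right). The dotted line marks the summit of 6, bands with a share of 0 have no point, and TFE3 falls from 0.926% to 0.0214% between the bands 6 to 7 and 7 to 8 on the left.

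Gained peaks were short, modest and placed near the threshold that chose them. Their summits ran from 6.02 to 7.09 with a median of 6.28, and the highest gained summit in the other lists lay between 10.5 in CAMTA1 and 17.5 in YAP5SA. Their areas ran from 225 to 900 with a median of 438, and their widths from 121 to 876 bp with a median of 364 bp. In the band of summits from 6 to 7, which holds 128 of the 130, the median area was 436 and the median width 364 bp, against 543 and 468 bp in the 13633 TFE3 peaks of that band shared with EV. Gained peaks of the band were thus narrower than shared ones, at median summits of 6.28 and 6.47. No gained peak was 1 kb wide or more, and 1125 (8.25%) of the shared peaks of the band were.

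Lost peaks reached higher and wider than gained peaks. Their summits ran from 6.003 to 10.4 with a median of 6.47, and 40 of the 203 (19.7%) exceeded the strongest gained peak. Their areas ran from 176 to 2851 with a median of 495, and their widths from 103 to 2783 bp with a median of 327 bp. The middle of both sets was close and the sets overlapped, and the upper tail was made of lost peaks. In the lost set 20 peaks (9.85%) were 1 kb wide or more. In the band from 6 to 7 the 157 lost peaks had a median area of 448 and a median width of 326 bp, and the 13046 EV peaks of that band shared with TFE3 had 428 and 390 bp, at median summits of 6.31 and 6.44. Lost peaks of the band were thus narrower than shared ones at the median, with a median area as large. Widths of 1 kb or more were held by 14 (8.92%) of these lost and 808 (6.19%) of these shared peaks.

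**Figure D2:**
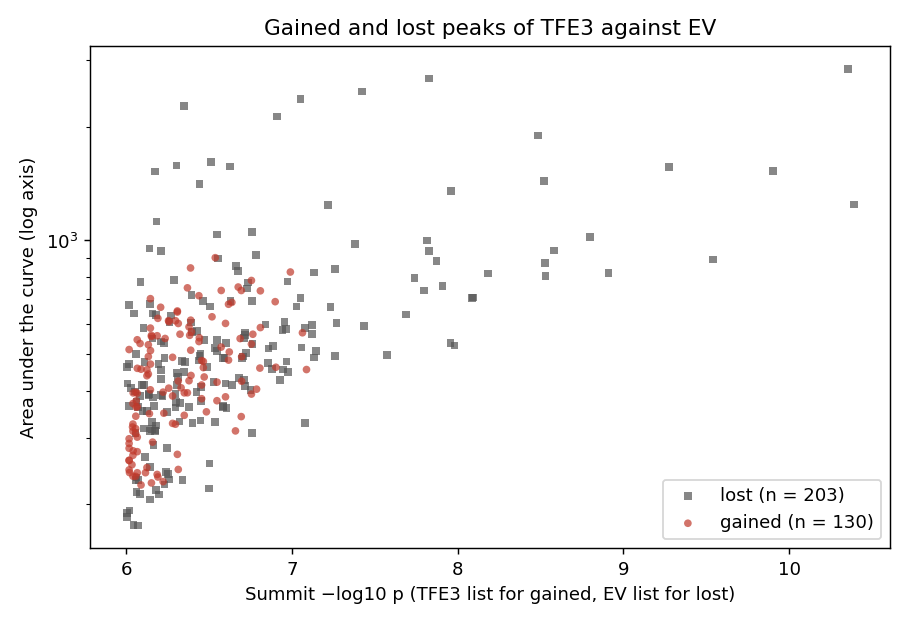
Area under the curve (log axis) against summit −log10 p for the 130 gained peaks, with TFE3 values, and the 203 lost peaks, with EV values. Gained peaks end at a summit of 7.09 and an area of 900, and 40 lost peaks lie to the right of them.

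Peaks on each side of the threshold were alike in size. The 3 TFE3 peaks beyond 1 kb of EV just under it had summits of 5.98, 5.99 and 5.99 and areas of 327, 316 and 345, and the 3 just above it all had a summit of 6.02, with areas of 247, 514 and 290. The 3 EV peaks just under it had summits of 5.990, 5.991 and 5.999 and areas of 184, 297 and 360, and the 3 just above it 6.003, 6.004 and 6.004 with areas of 185, 462 and 190. The threshold thus cut through a continuous range. From 5.5 to 6 there were 375 TFE3 and 323 EV peaks beyond 1 kb of the other list, and from 6 to 6.5 there were 98 and 103.

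Gained and lost peaks lay at similar median distances from the other list, and lost peaks had more members far away. The nearest EV peak to a gained peak was 1018 to 73211 bp away with a median of 5522 bp, with 20 (15.4%) within 2 kb and 31 (23.8%) over 10 kb away. The nearest TFE3 peak to a lost peak was 1059 to 2241705 bp away with a median of 6176 bp, with 42 (20.7%) within 2 kb and 87 (42.9%) over 10 kb away.

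The largest gained peaks were sites that other vectors opened as well. Positions are in hg19, counted from 1, and the genes at them were not analysed here. The peak at chr3:14668428-14669217 had the largest area in the gained set, 900 at a summit of 6.54. At that site the summit was 4.99 in TAZ4SA, 7.25 in YAP5SA, 7.15 in CAMTA1, 5.61 in TAZ-CAMTA1 and 7.46 in YAP-TFE3. Peaks were thus stronger there with YAP5SA, CAMTA1 and YAP-TFE3 than with TFE3. The peak at chr1:223198482-223198920 had an area of 846 and a summit of 6.39 in TFE3. It had no counterpart in TAZ4SA, and its summit was 5.14 in YAP5SA, 9.03 in CAMTA1, 9.08 in TAZ-CAMTA1 and 11.1 in YAP-TFE3. The peak at chr1:31509463-31509994, with an area of 825 and a summit of 6.99, likewise had no TAZ4SA peak, and its summit was 4.63 in YAP5SA, 9.03 in CAMTA1, 8.80 in TAZ-CAMTA1 and 9.39 in YAP-TFE3. These 2 sites were strongest in the fusions and CAMTA1 and weak or without a peak in TAZ4SA and YAP5SA.

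The next gained peaks by area differed in which vector led. The peak at chr18:9899015-9899573 had an area of 783 and a summit of 6.76, with summits from 6.83 to 7.41 in YAP5SA, CAMTA1 and the fusions and 5.71 in TAZ4SA. At chr3:72031611-72032112 the TFE3 area was 753 and the summit 6.68, and the summits of the other lists were 5.42 in TAZ4SA, 9.44 in YAP5SA, 9.65 in CAMTA1, 7.13 in TAZ-CAMTA1 and 8.83 in YAP-TFE3. YAP5SA and CAMTA1 led there. The peak at chr6:170491734-170492465, with an area of 749 and a summit of 6.37, lay 1099 bp from the nearest EV peak and reached 8.05 in CAMTA1. The peak at chr10:73360448-73360960 had an area of 737 and a summit of 6.57 in TFE3, none in TAZ4SA, 5.15 in YAP5SA and 7.22, 6.80 and 8.29 in CAMTA1, TAZ-CAMTA1 and YAP-TFE3. The peak at chr1:235162018-235162789 had an area of 737, a summit of 6.69 in TFE3 and 8.96 in YAP5SA. In all 8 of the largest gained peaks, CAMTA1 and YAP-TFE3 had a higher summit than TFE3.

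Every gained peak had a counterpart in other lists. All 130 gained peaks (interval 97.1 to 100%) overlapped a peak of CAMTA1, all 130 a peak of TAZ-CAMTA1 and all 130 a peak of YAP-TFE3. YAP5SA had a peak at 124 (95.4%) and TAZ4SA at 90 (69.2%). No gained peak was absent from the other 5 lists, which allows a share of up to 2.31%, and none was in fewer than 3 of them. A peak in all 5 was found for 88, in 4 for 38 and in 3 for 4, and the last 4 were in CAMTA1 and both fusions. TFE3 peaks shared with EV in the gained set's range of summits (n = 14553) were found in CAMTA1, TAZ-CAMTA1 and YAP-TFE3 at 100% to the first decimal, in YAP5SA at 98.3% and in TAZ4SA at 83.8%. The gained set was thus below the shared set in TAZ4SA and YAP5SA, with intervals of 60.8 to 76.5% and 90.3 to 97.9% for the gained set. A peak in all 5 was found for 83.1% of the shared and 67.7% of the gained peaks.

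In YAP-TFE3, CAMTA1 and TAZ-CAMTA1 most gained sites had a higher summit than in TFE3, as most shared sites did. The median summit of the gained peaks, 6.28 in TFE3, was 8.15 in YAP-TFE3, 7.69 in CAMTA1, 7.03 in TAZ-CAMTA1, 6.61 in YAP5SA and 5.86 in TAZ4SA, each over the sites with a peak in that list. The summit exceeded that of TFE3 at 118 of 130 sites in YAP-TFE3, 113 in CAMTA1, 94 in TAZ-CAMTA1, 71 in YAP5SA and 33 in TAZ4SA. In percent these were 90.8, 86.9, 72.3, 54.6 and 25.4, against 95.4, 93.8, 96.1, 65.4 and 24.6 of the 14553 shared TFE3 peaks. A higher summit was thus less frequent at gained than at shared sites in all lists but TAZ4SA. A counterpart with a summit of 6 or more was present at 123 sites (94.6%) in YAP-TFE3, 118 (90.8%) in CAMTA1, 103 (79.2%) in TAZ-CAMTA1, 78 (60%) in YAP5SA and 40 (30.8%) in TAZ4SA. In the band of summits from 6 to 7 the shares were 94.5, 90.6, 79.7, 59.4 and 29.7% in gained peaks and 97.2, 96.5, 97.9, 74.8 and 34.0% in shared TFE3 peaks. TAZ-CAMTA1 showed the widest gap between the sets, 79.7% against 97.9%.

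**Figure D3:**
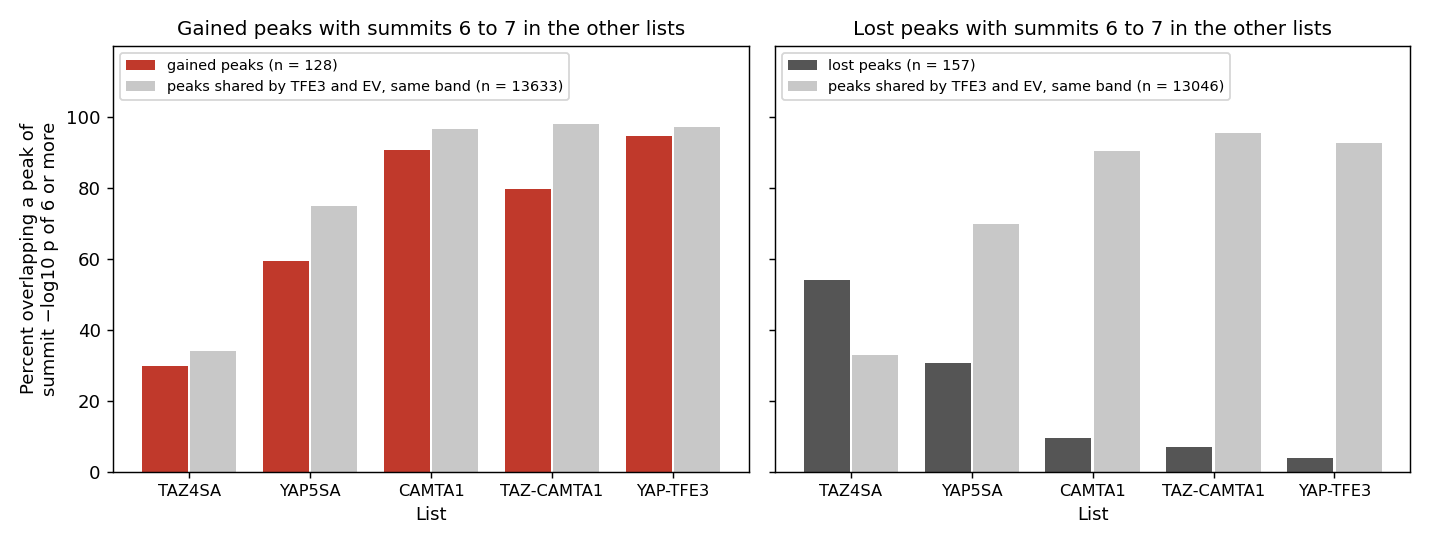
Percent of gained peaks (left, n = 128) and lost peaks (right, n = 157) with a summit −log10 p from 6 to 7 that overlap a peak with a summit −log10 p of 6 or more in each of the other lists, beside peaks shared by TFE3 and EV in the same band (grey). Lost peaks fall from 54.1% in TAZ4SA to 3.82% in YAP-TFE3, and gained peaks range from 29.7% in TAZ4SA to 94.5% in YAP-TFE3.

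Lost peaks showed the opposite order across the other vectors. Any peak of TAZ4SA overlapped 176 of the 203 (86.7%), of YAP5SA 182 (89.7%), of CAMTA1 174 (85.7%), of TAZ-CAMTA1 154 (75.9%) and of YAP-TFE3 144 (70.9%). For the 32969 shared EV peaks in the lost set's range of summits these shares were 90.0, 98.6, 99.9, 99.96 and 99.9%. With a summit of 6 or more, 127 lost peaks (62.6%) remained in TAZ4SA, 85 (41.9%) in YAP5SA, 29 (14.3%) in CAMTA1, 15 (7.39%) in TAZ-CAMTA1 and 10 (4.93%) in YAP-TFE3. In the band of summits from 6 to 7 these shares were 54.1, 30.6, 9.55, 7.01 and 3.82% of 157 lost peaks in the same order of lists, against 33.0, 69.9, 90.5, 95.6 and 92.6% of the 13046 shared EV peaks. TAZ4SA thus had such a peak more often at lost than at shared sites, and the other 4 lists less often. Most lost sites were therefore weak or without a peak with CAMTA1 and both fusions and often strong with TAZ4SA. Weak EV peaks beyond 1 kb of TFE3, given below, did not show this order. The median summit at these sites was 7.20 in TAZ4SA, 5.95 in YAP5SA, 5.03 in CAMTA1, 4.40 in TAZ-CAMTA1 and 4.42 in YAP-TFE3, against 6.47 in EV.

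Peaks of all 5 other lists covered 99 lost peaks (48.8%), against 89.4% of the shared EV peaks in the lost set's range of summits. Neither fusion had a peak at 26 lost peaks (12.8%). Just 2 lost peaks were in none of the 5, chr14:19722534-19722709 with a summit of 6.11 and an area of 267, and chr5:63815475-63815767 with 6.05 and 232. Among the largest lost peaks, chr4:1421296-1423108 had an EV area of 2851 and a summit of 10.4, and its summit was 7.57 in TAZ4SA, 8.64 in YAP5SA, 7.29 in CAMTA1, 6.71 in TAZ-CAMTA1 and 5.29 in YAP-TFE3. The nearest TFE3 peak was 9734 bp away. The site at chr7:157940176-157941866 had an EV area of 2684 and a summit of 7.83, and 9.37, 8.55, 6.06, 5.29 and 4.97 in the other lists in the same order. At chr1:2602018-2603946 the EV area was 2482 and the summit 7.42, and the other lists gave 7.81, 6.35, 5.55, 4.52 and 3.99. All of these fell from TAZ4SA or YAP5SA through CAMTA1 to the fusions.

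The same fall was seen at the other large lost peaks. At chr2:91596672-91598111 (EV area 2374, summit 7.05) the summit was 8.65 in TAZ4SA, 8.05 in YAP5SA, 5.80 in CAMTA1, 4.04 in TAZ-CAMTA1 and 4.89 in YAP-TFE3. At chr21:10720057-10722839 (area 2268, summit 6.35) it was 6.52, 6.02, 5.35 and 3.60 in the first 4, with no YAP-TFE3 peak. Neither fusion reached a summit of 5 at these sites. At chr2:90375173-90376671 (area 2131, summit 6.91) it was 9.95, 7.16, 6.001 and 4.48, again with no YAP-TFE3 peak. At chr5:49415857-49416969 (area 1899, summit 8.49) it was 8.76 in TAZ4SA and 3.91 in YAP-TFE3, with no TAZ-CAMTA1 peak. The exception was chr5:165838678-165839990 (area 1613, summit 6.51), with 6.88, 6.82, 4.89, 4.72 and 5.93, where YAP-TFE3 exceeded CAMTA1.

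Lost peaks were gathered at particular places on the chromosomes, and gained peaks were not. The longest stretch without a peak in any list was found on each chromosome. In hg19 it lies at the centromeric gap on chromosomes such as 1, 2, 5, 10 and 21. It lies elsewhere on chromosomes 13, 14, 15, 22, X and Y. Lost peaks beside the centromere of X or Y, such as chrX:61815015-61815293 and chrY:13652065-13652229, therefore count as away from the stretch. Within 2 Mb of it lay 92 lost peaks (45.3%, interval 38.6 to 52.2%), 2.95% of all EV peaks with a summit of 6 or more, and 2.40% of shared EV peaks in the lost set's range of summits. No gained peak lay there (upper bound 2.87%), where 2.36% of TFE3 peaks with such a summit did. Within 2 Mb of the first or last peak of a chromosome lay 36 lost peaks (17.7%) against 6.55% of the EV peaks, and 5 gained peaks (3.85%) against 5.94% of the TFE3 peaks. On chromosome 21, where the first peak lies close to the stretch, were 12 of these 36, and without that chromosome 24 of 190 lost peaks (12.6%) lay near a first or last peak and 79 (41.6%) near a stretch. Either place held 115 lost peaks (56.7%) and 5 gained peaks. A first peak can lie far from the start of a chromosome, as at 19000587 on chromosome 14 and 20002302 on chromosome 15. Lost peaks such as chr14:19722534-19722709 and chr15:20133919-20134471 count as near a first peak. DNA beside centromeres and at chromosome ends is rich in repeats.

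The order across the other lists was present both near and away from these places. Of the 92 lost peaks near the peak-free stretch, TAZ4SA had a peak with a summit of 6 or more at 78 (84.8%), YAP5SA at 49 (53.3%), CAMTA1 at 9 (9.78%), TAZ-CAMTA1 at 2 (2.17%) and YAP-TFE3 at 0. Of the 88 lost peaks away from both places, TAZ4SA had 39 (44.3%), YAP5SA 28 (31.8%), CAMTA1 15 (17.0%), TAZ-CAMTA1 10 (11.4%) and YAP-TFE3 7 (7.95%). The fall was steeper near the stretch. Shared EV peaks in the lost set's range of summits were a reference. Away from both places TAZ4SA had such a peak at 56.3% of them, above the 44.3% of lost peaks, and the other lists at 84.5 to 98.1%. Near either place TAZ4SA had one at 58.2% of shared and 76.5% of lost peaks. In this reference TAZ4SA was thus higher at lost sites near these places only. Away from them the shared peaks had higher summits than the lost, with medians of 7.38 and 6.41. Without the places, 88 lost peaks and 125 gained peaks were left, so lost exceeded gained with the places included and gained exceeded lost without them.

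Spacing differed in the same way. The median distance to the nearest peak of the same set was 86244 bp for lost and 5757379 bp for gained peaks. Within 50 kb of another of its set were 92 lost peaks (45.3%) and 4 gained peaks (3.08%). Chained at that distance, lost peaks formed 28 groups, 17 of them with 3 or more peaks and 70 peaks in all, and gained peaks formed 2 groups of 2. The largest lost group held 9 peaks at chr21:10716662-10804249 with a summed area of 7596 and summits from 6.07 to 7.96. Others held 8 peaks at chr2:90372764-90394520, 7 at chr1:2592369-2627619 and 5 at chr10:39082245-39140403. Neighbouring lost peaks share a region and are not independent sites. The intervals given for lost peaks treat them as independent and are thus too narrow.

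By chromosome, the shares of gained and of lost peaks were both uneven. Chromosomes 1, 2 and 3 held 14, 12 and 12 gained peaks. The gained share was highest on chromosome 10, with 9 of 1402 peaks (0.642%, interval 0.338 to 1.22%), and chromosome 22, with 6 of 962 (0.624%). It was low on chromosomes 9 (2 of 2493, 0.0802%, interval 0.0220 to 0.292%) and 7 (3 of 3073, 0.0976%). Lost peaks were most numerous on chromosome 5, with 23 of 3816 (0.603%), and took the largest autosomal share on chromosome 21, with 13 of 527 (2.47%, interval 1.45 to 4.17%). All 13 on chromosome 21 lay within 2 Mb of its peak-free stretch, and 9 of them formed the largest lost group, so this interval is too narrow. Chromosomes 6 and 22 had 0 lost peaks among 2331 and 870.

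**Figure D4:**
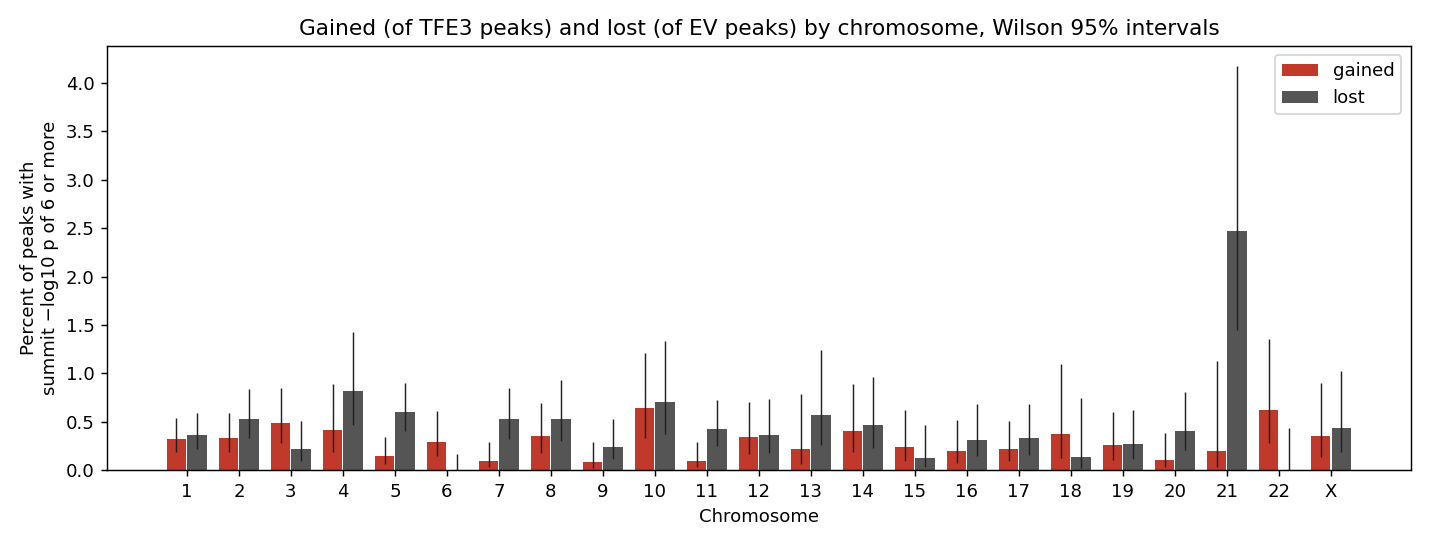
Gained peaks as a percent of TFE3 peaks, and lost peaks as a percent of EV peaks, with a summit −log10 p of 6 or more on each chromosome, with Wilson 95% intervals as lines. Chromosome 21 stands out for lost peaks at 2.47%, chromosomes 10 and 22 lead for gained peaks, and chromosome Y (6 lost of 91 peaks) and unplaced sequences are not drawn.

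The lists also differed in how many peaks they held on some chromosomes. The TFE3 list held 0.914 peaks for each EV peak over the genome, but 0.522 on chromosome 13 (3670 against 7035), 0.670 on chromosome 5 (12701 against 18953) and 0.791 on chromosome 20. It held 1.20 on chromosome 10 and 1.10 on chromosome 22. For peaks with a summit under 5 the ratio was 0.424 on chromosome 13, 0.587 on chromosome 5 and 1.27 on chromosome 10, and for those of 6 or more it was 0.874, 0.903 and 1.10. The imbalance thus sat mainly in weak peaks. On chromosome 13 40.2% of EV peaks overlapped a TFE3 peak, on chromosome 5 52.6% and on chromosome 10 84.2%. TAZ4SA, of similar length to TFE3, held 0.895, 0.939 and 0.832 peaks for each EV peak on chromosomes 13, 5 and 10, and 0.892 over the genome. The imbalance was not particular to TFE3. CAMTA1, TAZ-CAMTA1 and YAP-TFE3 held 1.31, 1.38 and 1.38 over the genome, but 0.866, 0.890 and 0.950 on chromosome 13. On chromosome 10 these lists held 1.63, 1.68 and 1.74. YAP5SA held 1.13 on chromosome 13 and 1.48 on chromosome 10, against 1.35 over the genome. The 2 chromosomes with the highest gained shares were also the 2 with the highest ratios, but others departed from that order. Chromosome 13, with the lowest ratio, had a gained share of 0.218%. Chromosomes 7, 9 and 11, with ratios of 0.842, 0.883 and 0.861, had lower gained shares of 0.0976, 0.0802 and 0.101%. Lost shares were mixed beside the ratio. Chromosomes 13 and 5, with low ratios, had lost shares of 0.571% and 0.603%, and chromosome 22, with a high one, had 0 lost of 870. Chromosome 10 had a lost share of 0.703% and chromosome 20 of 0.409%, against 0.433% over the genome. The part of this imbalance in the gained and lost sets was not tested.

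Strong shared peaks were close in size in the 2 lists, and weak ones varied more. Peaks that overlapped exactly 1 peak of the other list formed 83814 pairs, with a median log2 ratio of area, TFE3 to EV, of 0.14 (quartiles −0.38 and 0.84), and TFE3 had the larger area in 47207 (56.3%). Of these pairs 25564 (30.5%) differed from the median by more than 2-fold. The summit moved the other way, with a median difference of −0.12. In the 26463 pairs with a summit of 6 or more on both sides the median log2 ratio of area was −0.01 (quartiles −0.27 and 0.33, SD 0.47 over pairs). Of these, 1175 (4.44%) differed from that median by more than 2-fold. Around the median of each other list, 15.2% did with TAZ4SA, 12.5% with YAP5SA and 8.67% with CAMTA1. With YAP-TFE3 8.39% did, and with TAZ-CAMTA1 6.55%. The median log2 ratio itself was −0.46 with TAZ4SA, 0.28 with YAP5SA, 0.79 with CAMTA1, 1.00 with TAZ-CAMTA1 and 1.03 with YAP-TFE3. TFE3 thus had the median ratio of area nearest to EV, and its pairs scattered least around their own median. By summit it was not nearer than TAZ4SA, with a median difference from EV of −0.484 in both.

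Across bands of EV summit, weak sites were larger and the strongest sites smaller in TFE3. For EV summits of 3 to 4 (10084 pairs) the median log2 ratio of area was 1.23 and the median ratio of summits 1.11. Areas were larger than in EV there with every other vector too, from 1.03 with TAZ4SA to 2.25 with TAZ-CAMTA1. For 6 to 7 the TFE3 values were 0.11 and 0.966, and for 10 to 15 they were −0.20 and 0.887. For 15 or more (1512 pairs) they were −0.35 and 0.833, and the TFE3 summit was the higher in 0.0661% of the pairs. In that band the median ratio of summits was 0.961 with TAZ4SA, 1.08 with YAP5SA, 1.20 with CAMTA1, 1.18 with TAZ-CAMTA1 and 1.31 with YAP-TFE3. TFE3 thus had the lowest ratio of the 6 vectors at the strongest sites. Because bands were set by the EV summit, low bands hold EV peaks near the limit of calling, and a higher value in the other list is favoured there.

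**Figure D5:**
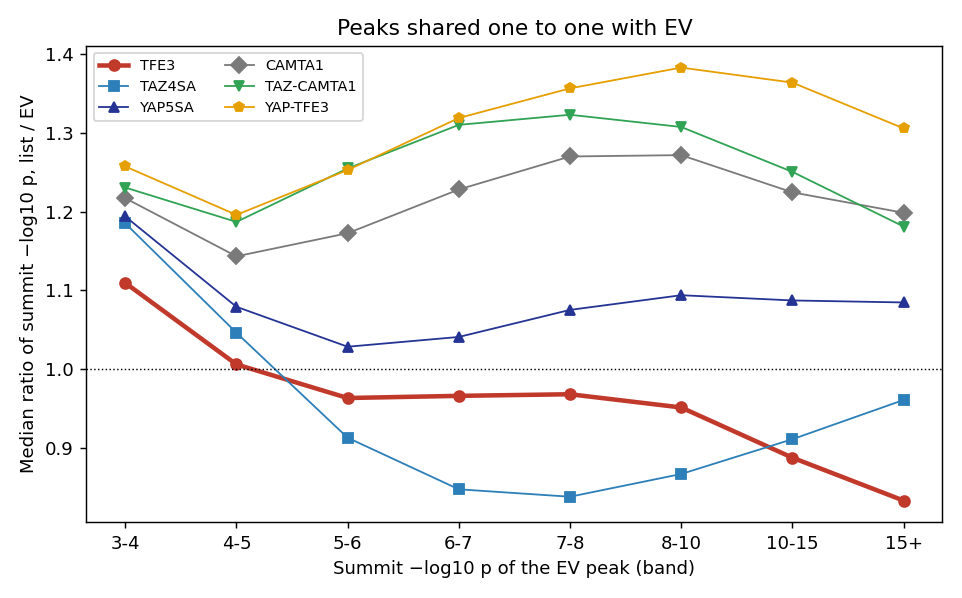
Median ratio of summit −log10 p, each list to EV, for peaks paired 1 to 1 with EV, by band of EV summit. TFE3 runs from 1.11 in the band 3 to 4 to 0.833 at 15 or more, and the dotted line marks equal summits.

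A few shared sites differed strongly. Among pairs with a summit of 6 or more on both sides, the site most in favour of TFE3 was chr17:17894112-17894638, with an area of 1200 in TFE3 and 198 in EV, a log2 ratio of 2.60, and summits of 8.51 and 6.04. The next 4 were chr12:54238838-54239714 (1409 against 280, log2 ratio 2.33), chr1:59398194-59399530 (1655 against 330, 2.33), chr4:13893256-13894306 (1815 against 399, 2.19) and chr15:74485553-74486595 (2764 against 612, 2.18). Their TFE3 peaks were 527 to 1337 bp wide and all EV peaks were narrower. In the other direction, chr8:86571770-86572616 had an area of 384 in TFE3 and 3564 in EV, a log2 ratio of −3.21. It was followed by chr10:135478035-135478667 (423 against 3454, −3.03), chr2:89865162-89865540 (483 against 2952, −2.61), chr10:42541546-42542042 (767 against 4413, −2.52) and chrY:13452524-13452674 (329 against 1793, −2.45). The site chr10:42541546-42542042 adjoins the peak-free stretch of its chromosome, which ends at 42354894, and chr10:135478035-135478667 lies near the last peak of chromosome 10, which ends at 135524797.

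Weak TFE3 peaks beyond 1 kb of EV, which the rule left out for their summits under 6, numbered 19914, with a median area of 51.2 and a median width of 117 bp. A peak of TAZ-CAMTA1 overlapped 82.2% of them, of YAP-TFE3 80.3%, of CAMTA1 75.5%, of YAP5SA 54.6% and of TAZ4SA 26.3%, and 96.0% overlapped a peak of at least 1 of these lists. They were thus seldom particular to the TFE3 list. The 26873 weak EV peaks beyond 1 kb of TFE3 had a median area of 40.4, and 66.9% of them overlapped a peak of at least 1 other list, from 18.4% in TAZ4SA to 42.3% in TAZ-CAMTA1. The lists of the 5 vectors held from 152702 to 236893 peaks, and the part of these lengths in the shares was not tested.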

How the data were processed

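ATAC-seq peak lists were used as the authors deposited them, 1 per vector, in hg19 (GRCh37) coordinates. By the study's methods, adapters were removed with NGmerge, reads were mapped with BWA-MEM, and Genrich, set for ATAC-seq, called the peaks after leaving out PCR duplicates and blacklisted regions; the methods describe calling on each replicate, and how 1 list per vector was made from the libraries is not given in the sources used here. The submitters' processing notes name Bowtie 0.12.2 and the mouse build mm8, which do not match these human positions. The authors deposited for each peak a score (its area per base pair times 1000, with a ceiling of 1000), a signal (its area under the caller's curve), and the −log10 p-value and −log10 q-value of its summit. The score was not used. No column of another sample was found.

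Distances between lists were computed with numpy 2.4.6 and pandas 2.3.3 under Python 3.11.15, tested on simulated peaks and compared with bedtools 2.31.1 (0 of 156421 TFE3 and 0 of 171102 EV distances differed). Wilson intervals were at 95%, and a count of 0 was given a limit of 3 counts. The lists give no value per library and their depth is unknown, so no test was made. The peaks named are the 8 largest gained and lost by area, any absent from all other lists (up to 5), the 5 shared pairs at each end of the log2 area ratio, and the 3 peaks of each list on each side of the threshold; the lost and gained groups named were added by their number of peaks. The members, lists and rules were chosen with earlier results of these data known. Alternatives were summits of 5 and 8, no overlap or 5 kb in place of 1 kb, equal numbers of peaks, autosomes alone, 50% reciprocal overlap, and, chosen after seeing the data, no peaks within 2 Mb of peak-free stretches or chromosome ends, other lists restricted to summits of 6, ranks, summits from 6 to 7, and no chromosome 21. Genes, motifs and sequences at the peaks were not analysed here, since no hg19 reference was used.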

Additional observations from a re-analysis of the deposited data

How the results depend on the processing

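Gained and lost counts moved with the summit and the distance. At a summit of 5 there were 1669 gained and 1611 lost peaks, so gained no longer trailed lost, and at 8 there were 0 gained (of 24334) and 15 lost. Without overlap in place of 1 kb they were 197 and 326, over 5 kb 69 and 113, and lost fell to 88 without the 2 Mb windows. Equal numbers by summit or by area, autosomes alone, and ranks stayed within 1.5 times. The shares ranged from 0 to 2.34% gained and from 0.0594 to 2.24% lost.

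Lost peaks with a peak in at least 1 other list (201 of 203 as reported) were 94.1% of the set at a summit of 5, 100% at 8, and 72.9% when the other lists were held to summits of 6. Gained peaks stayed at 100% under the alternatives that left any, except 99.2% in that last one. Shared TFE3 peaks with a summit of 6 in both lists were 40018 of 47513 (84.2%). The 1-to-1 shared peaks, higher in TFE3 by area, were lower by summit (−0.116), and the cause was not tested. The removal of the 2 Mb windows, the stricter other lists and the ranks were chosen after seeing the data. So were the band of summits and the omission of chromosome 21.

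No paired analysis was possible because each vector has a single list that cannot be split by library, and leaving out a library could not be done for the same reason. Motif and gene results were not run. The depth of each list is unknown, TFE3 had 2 libraries and EV 3, and peaks near a summit of 6 change sides easily: 375 TFE3 and 323 EV peaks beyond 1 kb lay between 5.5 and 6.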

Other observations

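Peaks that the TFE3 list held alone were few and weak. Of its 156421 peaks, 1522 (0.973%) overlapped none of the other 6 lists, with a median area of 28.8 and a highest summit −log10 p of 4.93, and 0 of the 47513 peaks with a summit of 6 or more did so, which allows a share of up to 0.00631%. The largest by area was chr5:132350769-132350895, with an area of 142 and a summit of 4.93. Peaks held by TFE3 and 1 other list alone numbered 1668 with TAZ-CAMTA1, 799 with YAP-TFE3, 559 with CAMTA1, 313 with YAP5SA, 156 with EV and 61 with TAZ4SA, and the lengths of these lists differ. Their highest summits lay between 4.44 and 5.14. In contrast, 70182 TFE3 peaks (44.9%) were in all 6 other lists, with a median area of 704. These counts were chosen after their values were seen.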
